A study of Mus musculus with 12 samples.

Results

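The genes described here are 33 markers of the fields of the hippocampus, taken by symbol from a list of 12 dentate, 7 CA1, 4 CA2 and 10 CA3 and mossy cell markers. All 33 were found among the 24421 genes of the count table. Of these 33, 32 had enough counts to be tested along with 13065 genes in all, and 1, the CA1 marker Gpr161, did not. The list was not chosen by a value measured in these libraries, although earlier results of the same data were known when it was drawn up.

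The hippocampus is a chain of fields. Granule cells of the dentate gyrus, the field in which neurons are still added in adult mice, send mossy fibers to CA3, CA3 projects to CA1, and CA2 lies between them. Mossy cells of the dentate hilus receive the same mossy fibers and share several markers with CA3. Each field has a set of genes that it expresses more strongly than its neighbours, so in RNA from whole tissue such genes report on how much of each field was collected and on how active those genes were. In bulk tissue fewer cells of a type and less RNA per cell cannot be told apart.

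RNA came from hippocampi of mice 2 months of age that had all received BrdU, an analogue of thymidine that marks dividing cells. Each of 4 genotypes gave 3 libraries: wild type (WT), the single mutants 5xFAD and p75NTRko, and 5xFAD/p75NTRko, called the cross. 5xFAD mice are a transgenic model of inherited Alzheimer's disease in which a Thy1 promoter drives mutant human proteins in neurons, and the p75NTRko label stands for loss of the p75 neurotrophin receptor, which Ngfr encodes. The sources used here give neither strain, sex nor the knockout allele, and do not say whether hippocampi were pooled. The series title places the study in adult neurogenesis and the receptor's part in it. Libraries were made from the 3′ ends of transcripts, so a count scaled to library size (CPM) carries no gene-length term and levels of different genes can be set side by side on 1 scale, apart from how well each 3′ end was captured.

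Libraries held 4316739 to 6683613 gene-assigned counts, and 3 counts, taken as the floor of measurement, corresponded to 0.446 to 0.690 CPM. Ngfr stood at 5.95 to 10.5 CPM in the libraries labelled with the receptor knockout and at 0.166 to 1.95 CPM in the others. That order goes against the label, but a 3′ tag outside a deleted exon checks nothing about the deletion, so these libraries are called by their label throughout. Thy1, whose 3′ tags can also come from a transgene built on this gene, was at 1596 to 4019 CPM in carriers of the transgene and 688 to 939.8 CPM in non-carriers. By the level of Xist, the 5xFAD libraries and p75NTRko replicates 2 and 3 fell into a low class and the other 7 libraries into a high class, so that this split cannot be told apart from 5xFAD against WT.

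All 32 tested members had counts in every library, so markers of all 4 fields were present throughout. The highest member was Nnat (neuronatin, an imprinted membrane protein of neurons), with a mean of 839.6 CPM over the 12 libraries, and the lowest was Prss35 (a serine protease-like protein), with 1.26 CPM. Gpr161, a receptor of the primary cilium, was at 0 in the WT and 5xFAD libraries, at 1 count in each p75NTRko library and at 0, 1 and 2 counts in the cross, all below the floor. The range of log2 CPM over the 12 libraries was 3.36 for Coch, 2.33 for Iyd and 2.31 for Lct, against a median of 0.77 over all genes tested. Calb1, with 0.48, was the steadiest member.

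The 33 genes lie on 14 chromosomes. By the GENCODE annotation of the same build, 10 overlap an exon of another gene, 8 of them on the opposite strand and 2 on the same strand (Maml2 and Pcp4). Neither the annotation nor the strand setting of the counting is given in the sources used here, so counts of these 10 are uncertain. They may lack reads that were set aside as ambiguous, or include reads of a neighbour that the annotation used did not hold. Positions on mm10 for the members that come up most below are chromosome 1, 120340582 to 120343174 (C1ql2), chromosome 13, 38151294 to 38198577 (Dsp), chromosome 12, 44852484 to 45074709 (Stxbp6), chromosome 4, 124656807 to 124660655 (Pou3f1), chromosome 13, 55369732 to 55384687 (Rgs14), chromosome 16, 96467606 to 96525793 (Pcp4) and chromosome 12, 51593341 to 51605771 (Coch). Of these 7, Stxbp6 lies on the minus strand and the others on the plus strand.

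The promoter sequences of 4 members are printed because the libraries set these genes apart in opposite directions: C1ql2 and Dsp had higher means in the libraries labelled p75NTRko than in WT, and Pcp4 and Coch had lower ones. Each is the 250 bases before the annotated start, 5′ to 3′ on the gene's own strand, from RefSeq on GRCm38.p6, with the GC box GGGCGG and its reverse complement CCGCCC in capitals. The windows are chr1:120340332-120340581 for C1ql2, chr13:38151044-38151293 for Dsp, chr16:96467356-96467605 for Pcp4 and chr12:51593091-51593340 for Coch, all on the plus strand.
C1ql2: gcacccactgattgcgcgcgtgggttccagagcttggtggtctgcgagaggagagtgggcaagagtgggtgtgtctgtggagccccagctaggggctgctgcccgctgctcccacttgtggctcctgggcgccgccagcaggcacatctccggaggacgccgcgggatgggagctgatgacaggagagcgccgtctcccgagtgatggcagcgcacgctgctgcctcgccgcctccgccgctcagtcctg
Dsp: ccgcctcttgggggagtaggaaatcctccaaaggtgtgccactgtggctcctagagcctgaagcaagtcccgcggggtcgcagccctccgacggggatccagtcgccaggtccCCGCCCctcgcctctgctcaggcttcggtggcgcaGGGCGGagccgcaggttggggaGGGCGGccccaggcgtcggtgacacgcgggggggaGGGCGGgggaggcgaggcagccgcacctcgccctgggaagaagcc
Pcp4: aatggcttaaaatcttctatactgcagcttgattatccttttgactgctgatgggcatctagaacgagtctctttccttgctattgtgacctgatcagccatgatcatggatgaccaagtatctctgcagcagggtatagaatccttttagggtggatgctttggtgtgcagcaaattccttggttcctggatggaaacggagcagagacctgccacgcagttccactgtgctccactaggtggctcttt
Coch: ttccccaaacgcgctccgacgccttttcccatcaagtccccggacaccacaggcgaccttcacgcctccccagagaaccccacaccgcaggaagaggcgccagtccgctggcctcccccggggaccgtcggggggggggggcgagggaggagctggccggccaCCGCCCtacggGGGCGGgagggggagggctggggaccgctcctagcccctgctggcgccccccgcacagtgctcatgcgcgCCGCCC
The Dsp window holds 4 GC boxes and the Coch window 3, while the C1ql2 and Pcp4 windows hold 0. Among these 4 genes the motif occurred in both directions of difference. So few genes, chosen for their differences, cannot show whether motif and direction go together. The RefSeq table matched 26 of the 33 members, and 15 of the 26 windows held a GC box on either strand, against 32.74% of 32851 promoter windows of that length. Only the first listed window of each member was counted, while the 32851 include further windows of the same gene. The second windows of Gpr161, Npnt, Maml2, Cpne4 and Mpped1 held 0 GC boxes, so the shares are not on a like footing. By field, the motif was in 3 of 10 dentate windows, 4 of 5 CA1 windows, 1 of 2 CA2 windows and 7 of 9 CA3 and mossy cell windows. The E-box CAGATG was in 3 of the 26 windows (14.44% of all windows) and TATAAA in 2 (12.37%), both searched on either strand. The second Maml2 window, not counted here, also held an E-box.

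To follow whole fields, a score was taken in each library as the mean log2 CPM of the field's tested members (prior count of 2). Such a score weighs a low gene as heavily as a high one. It gets no p-value here, since its members were picked with earlier results known. A difference of 1 on this scale is a doubling of the average member.

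The dentate score was highest in the libraries labelled p75NTRko. It was 4.85, 4.81 and 4.73 in p75NTRko replicates 1, 2 and 3, which are the 3 highest of the 12 values. In WT it was 4.14, 4.21 and 4.70, in 5xFAD 4.51, 4.54 and 4.64, and in the cross 4.65, 4.50 and 4.11. WT replicate 3 lay just below the p75NTRko libraries while WT replicates 1 and 2 and cross replicate 3 were the 3 lowest. Genotype means were 4.35 ± 0.31 (SD, n = 3) in WT, 4.56 ± 0.07 in 5xFAD, 4.80 ± 0.06 in p75NTRko and 4.42 ± 0.28 in the cross. The widest gap between genotype means, p75NTRko minus WT, was thus 0.45, against an SD within genotypes of 0.21 and a gap of 0.56 among the WT libraries alone. With the median of the members as the score, this gap was 0.17, and 5xFAD minus WT turned from 0.21 to −0.053.

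The CA1 score was lowest in WT and highest in 5xFAD on average. It was 5.25, 5.44 and 5.58 in WT, 5.81, 5.46 and 6.19 in 5xFAD, and 5.59, 5.77 and 5.75 in p75NTRko. The cross had 5.58, 5.48 and 5.49. 5xFAD replicate 3 stood alone at the top, with 4 of the 6 tested CA1 members at their highest value of the 12 libraries and all 6 among their 3 highest. The score is the mean of these same members, so their ranks restate it by member. 5xFAD replicate 2 fell within the WT range, so the 2 genotypes overlapped. Means were 5.42 ± 0.17 in WT, 5.82 ± 0.37 in 5xFAD, 5.70 ± 0.10 in p75NTRko and 5.52 ± 0.06 in the cross (SD, n = 3 each). The p75NTRko values lay above the WT values, with WT replicate 3 and p75NTRko replicate 1 nearly level at 5.58 and 5.59.

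The CA2 score did not separate any genotypes. It ran from 5.28 to 5.72 in WT, from 5.25 to 5.61 in 5xFAD, from 5.23 to 5.70 in p75NTRko and from 5.25 to 5.64 in the cross. Its genotype means spanned 0.11, less than the SD within genotypes of 0.21. As shown further on, this flat score averages members that differed in opposite directions.

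The CA3 and mossy cell score was highest in p75NTRko on average. It was 4.27, 4.37 and 4.61 in WT, 4.56, 4.45 and 4.39 in 5xFAD, and 4.78, 4.68 and 4.69 in p75NTRko. The cross had 4.61, 4.70 and 4.04. All 3 p75NTRko values lay above all WT and 5xFAD values, and cross replicate 3 was lowest of all. Genotype means were 4.42 ± 0.17 in WT, 4.46 ± 0.09 in 5xFAD, 4.72 ± 0.05 in p75NTRko and 4.45 ± 0.35 in the cross (SD, n = 3 each). The span of these means, 0.30, exceeded the SD within genotypes of 0.20. With log2 of summed CPM, which Nnat dominates, p75NTRko minus WT turned to −0.076, from summed levels of 1014 to 1133 CPM in p75NTRko and 910 to 1303 CPM in WT.

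**Figure D1:**
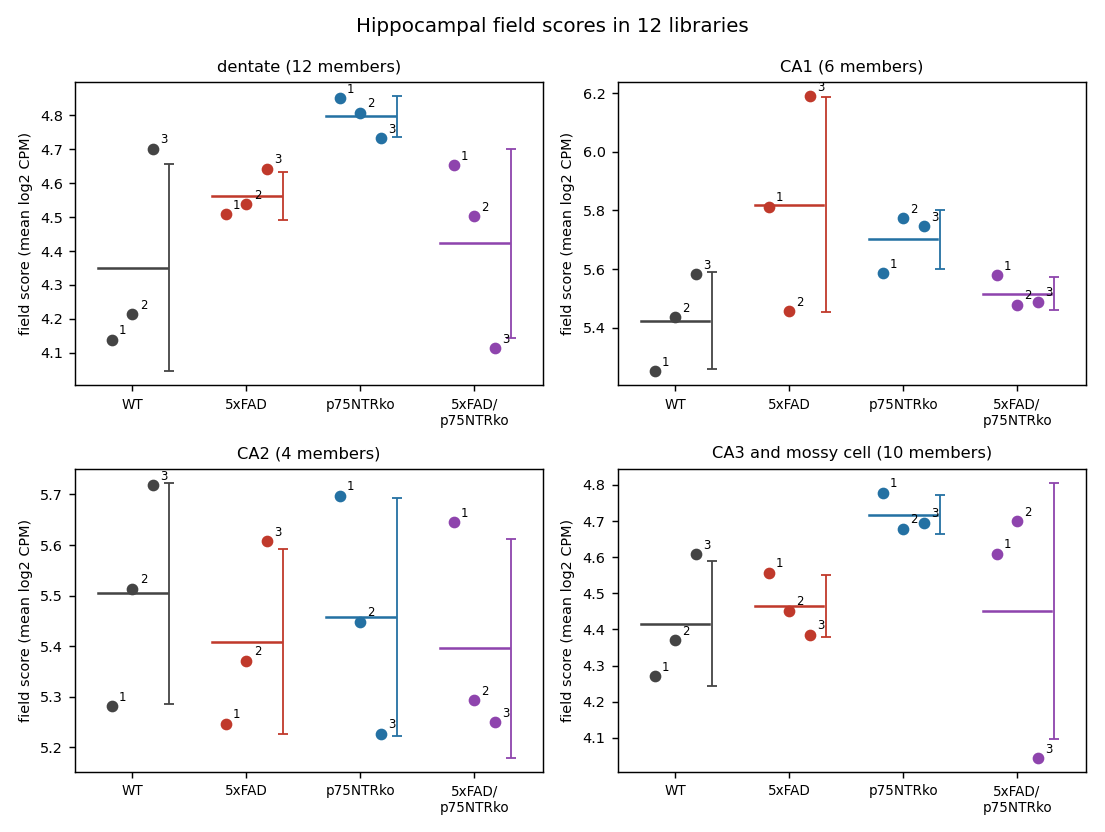
Field score (mean log2 CPM of the tested members, y axis) in each library by genotype (x axis), 1 panel per field, with replicate numbers beside the points, a line at the genotype mean and a bar of 1 SD. The p75NTRko points are the 3 highest in the dentate panel (4.73 to 4.85), while WT replicates 1 and 2 and cross replicate 3 are the 3 lowest there.

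The balance between the dentate gyrus and CA1 did not separate any genotypes. The dentate score minus the CA1 score was −1.11, −1.22 and −0.88 in WT, −1.30, −0.92 and −1.55 in 5xFAD, and −0.74, −0.96 and −1.01 in p75NTRko. The cross had −0.93, −0.98 and −1.38. The genotype means were −1.07 ± 0.17, −1.26 ± 0.32, −0.90 ± 0.15 and −1.09 ± 0.25 in that order (SD, n = 3 each).

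Libraries of 1 genotype differed in how many members stood high. In WT replicates 1 and 2, 2 of 12 dentate members were above their own median over the 12 libraries, and in cross replicate 3 it was 1 of 12. These 3 libraries have the lowest dentate scores, so the counts restate those scores by member. In WT replicate 3 it was 10 of 12, and in each p75NTRko library 9 of 12. Members of a field are read from the same RNA and are not replicates of each other.

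**Figure D2:**
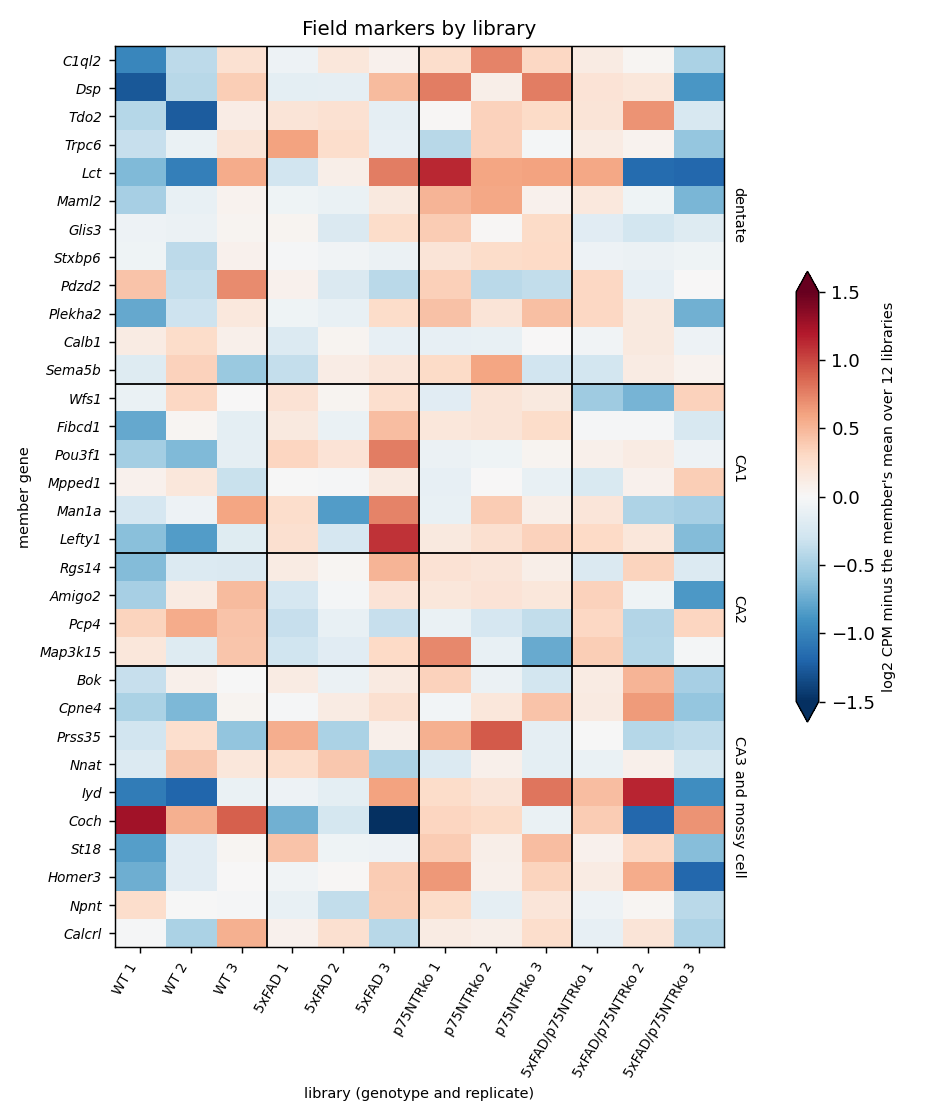
Log2 CPM of the 32 tested members (rows, grouped by field) in the 12 libraries (columns), shown as the difference from each member's mean, with red above and blue below. The dentate and CA3 blocks are mostly blue in WT replicate 1 and cross replicate 3 and mostly red in the p75NTRko libraries.

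Markers of tissue around the hippocampus were not even across these libraries. The score of 13 neocortex and subiculum markers was 5.17 in cross replicate 3 and 5.07 in WT replicate 1, and 4.05 to 4.55 in the other 10 libraries. The score of 9 striatal markers was 4.47, 4.33 and 4.29 in WT and at most 4.09 elsewhere. The score of 10 thalamus and habenula markers was 4.29, 4.49 and 4.84 in WT and 5.08 in cross replicate 1, against 3.53 to 4.02 in the other 8 libraries. Choroid plexus markers ranged from a score of 1.69 to 6.01 and were at 5.28 to 5.97 in p75NTRko, 4.30 to 5.83 in WT and 2.33 to 4.39 in 5xFAD. Both ends of that range lay in the cross, with 6.01, 1.69 and 2.24 in replicates 1, 2 and 3. Summed over the neocortex and subiculum list, levels were 517 to 597 CPM in WT, 437 to 529.9 CPM in 5xFAD, 429 to 487 CPM in p75NTRko and 385 to 642 CPM in the cross, with Nxph4 at 0 in at least 1 library. Summed thalamic levels were 494 to 756 CPM in WT, 335 to 395 CPM in 5xFAD, 303 to 339.6 CPM in p75NTRko and 298 to 891 CPM in the cross, with Gbx2 and Gpr151 at 0 in at least 1 library, and summed striatal levels were 239 to 300.3, 183 to 206, 172 to 193 and 162 to 200.02 CPM in the same order, with Drd2 at 0 in at least 1.

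General markers of excitatory neurons were uneven too. The score of 6 such genes was 8.92 to 9.22 in WT, 9.33 to 9.60 in 5xFAD, 9.35 to 9.48 in p75NTRko and 8.99 to 9.56 in the cross, so that both single mutants lay above all WT libraries. The list was not uniform: Neurod6, a transcription factor of pyramidal neurons, was at 289, 308 and 399 CPM in WT and 459, 525 and 551 CPM in p75NTRko, while Slc17a7, the vesicular glutamate transporter, was at 1062, 1169 and 901 CPM in WT and 1130, 1097 and 1166 CPM in p75NTRko and overlapped. Both genes were chosen after their values were seen, and the part of these markers in the differences of the field markers was not tested.

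**Figure D3:**
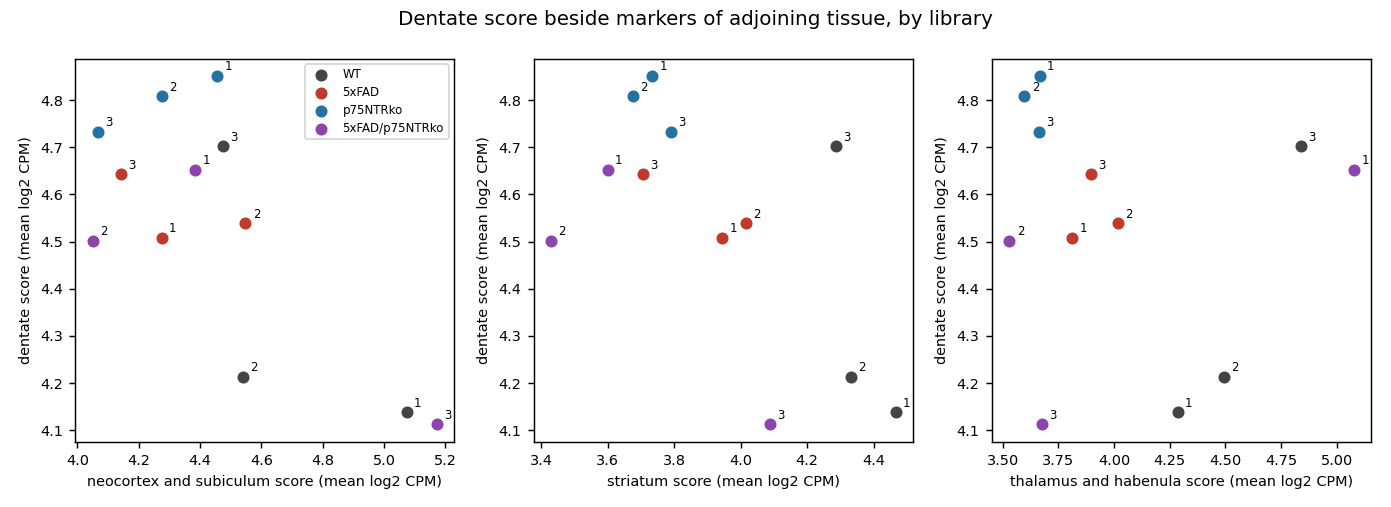
Dentate score (y axis, mean log2 CPM) against the score of neocortex and subiculum, striatal, and thalamus and habenula markers (x axes, mean log2 CPM) in the 12 libraries, coloured by genotype with replicate numbers. WT replicate 1 and cross replicate 3 combine the lowest dentate scores (4.14 and 4.11) with the highest neocortex and subiculum scores, and the WT libraries lie to the right in the striatal panel.

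Each member was tested with edgeR's quasi-likelihood fit over all 12 libraries, with p-values adjusted over all 13065 genes by the Benjamini-Hochberg method and called under 0.05. None of the 32 members passed in any of 7 comparisons: 5 between pairs of genotypes, the interaction of transgene and receptor label, and any difference among the 4 genotypes. Of all genes tested, 0.0536% passed for 5xFAD against WT, 0.0383% for the cross against 5xFAD, 0.0383% for the interaction and 0.0995% for any difference, and 0% for p75NTRko against WT, the cross against p75NTRko and the cross against WT. Counts at an unadjusted p under 0.05 are therefore given as a description beside the share of all genes that reached it. The calls depended on the settings. DESeq2 was fitted without the filter on low counts. It called Pou3f1, Pcp4 and Coch for 5xFAD against WT, and Pcp4 for p75NTRko against WT and for the interaction. DESeq2 also called Pou3f1, Pcp4 and Coch for any difference among the 4 genotypes. Without that filter edgeR called members in these comparisons too, so the calls are not a matter of the tool alone. The share of all genes that DESeq2 called is not given here, so these calls stand without a background.

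In p75NTRko-labelled libraries against WT, dentate members stood mostly higher. Of 32 members, 14 were higher and 2 lower at an unadjusted p under 0.05, where 5.33% and 6.16% of all genes were. By separation, 12 members had all 3 p75NTRko values above all WT values and 3 had them below, against 7.93% and 8.5% of all genes. The 12 dentate members supplied 7 of the 14 and 5 of the 12, and their median log2 difference was 0.47, while that of all genes tested was −0.00. These counts varied with the libraries and the terms in the fit. Without WT replicate 1, 3 members were higher at that p, where 4.41% of all genes were. Without WT replicate 2 it was 7 (3.59%), without p75NTRko replicate 1 it was 9 (3.87%), without p75NTRko replicate 3 it was 5 (3.38%), and with the neocortex and subiculum score in the fit it was 3 (2.95%). With the Xist class in the fit it was 4 (2.5%). Without both libraries highest in neocortex and subiculum markers, WT replicate 1 and cross replicate 3, it was 11 (5.08%). The dentate median was 0.36 to 0.59 over all 22 alternatives.

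The size of single members' differences between p75NTRko and WT changed when marker scores of adjoining tissue were put in the fit. The mean neocortex and subiculum score was itself 4.70 in WT and 4.27 in p75NTRko, and the thalamus and habenula score 4.54 and 3.64. Score and genotype therefore cannot be fully told apart in such a fit. The neocortex and subiculum score was added to the fit after the data were seen. With the neocortex and subiculum score in the fit, the log2 difference of Dsp was 0.44, of Plekha2 0.28, of Maml2 0.35 and of Tdo2 0.43 among dentate members. It was 0.27 for Fibcd1, 0.40 for Lefty1 and 0.26 for Pou3f1 in CA1, 0.32 for Rgs14 in CA2, and 0.52 for Iyd, 0.27 for St18 and 0.15 for Cpne4 in CA3. Each of these was smaller by over 1.5 times than without the score, while Stxbp6 stayed at 0.38. With the thalamus and habenula score, Dsp was at 1.39, Plekha2 at 1.05 and Maml2 at 0.90, each larger by over 1.5 times. For 5xFAD against WT, the neocortex and subiculum score moved Lefty1 to 0.63 and Fibcd1 to 0.26, and Coch to −1.37.

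C1ql2, a secreted protein of the C1q family at mossy fiber synapses, was at 29.6, 44.5 and 68.7 CPM in WT and at 70.4, 98.6 and 73.0 CPM in p75NTRko. All p75NTRko values lay above the highest WT value, with 68.7 and 70.4 CPM as the closest pair. The log2 difference was 0.76 (SE 0.24), with an edgeR adjusted p of 0.328. In 5xFAD it was at 55.4, 65.9 and 61.2 CPM and in the cross at 63.6, 59.6 and 42.0 CPM, both overlapping WT. Without WT replicate 3 the difference was 1.12 with an edgeR adjusted p of 0.0488, and with the neocortex and subiculum score in the fit it was 0.52 (adjusted p 0.756).

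Stxbp6 (amisyn, a binding partner of syntaxin) was the second most abundant dentate member. It was at 119, 94.5 and 131 CPM in WT, 123, 119 and 117 CPM in 5xFAD, 142, 151 and 153 CPM in p75NTRko, and 118, 117 and 119 CPM in the cross. The p75NTRko values lay above all 9 others. Against WT the log2 difference was 0.38 (SE 0.10; edgeR adjusted p 0.263), and in the cross against p75NTRko it was −0.33 (SE 0.11; adjusted p 0.673).

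Dsp (desmoplakin, a desmosomal protein that marks granule cells) was at 17.2, 31.2 and 54.1 CPM in WT and 71.5, 44.6 and 71.5 CPM in p75NTRko, so 1 p75NTRko value fell within the WT range. It was at 37.9, 37.9 and 58.5 CPM in 5xFAD and 48.1, 47.0 and 22.6 CPM in the cross. Plekha2, a phosphoinositide-binding adaptor, was at 23.9, 32.9 and 45.8 CPM in WT and 55.6, 46.9 and 55.9 CPM in p75NTRko, which did not overlap. Maml2, a coactivator of Notch signalling, was at 24.1 ± 4.60 CPM in WT and 35.9 ± 6.70 CPM in p75NTRko (SD, n = 3). Its p75NTRko values also lay above all WT values, with 28.2 CPM in both groups as the closest pair. The log2 differences of these 3 genes were 0.89, 0.63 and 0.57, with edgeR adjusted p-values of 0.375, 0.372 and 0.362.

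Lct, the lactase gene and a marker of granule cells, had the widest range among dentate members. It was at 3.44, 2.60 and 8.46 CPM in WT, 4.58, 6.01 and 9.89 CPM in 5xFAD, 12.8, 8.74 and 8.77 CPM in p75NTRko, and 8.66, 2.34 and 2.30 CPM in the cross. WT replicate 3 and cross replicate 1 were high in their groups. Both were also highest of their groups in thalamic markers and in choroid plexus markers (scores of 5.83 and 6.01). The p75NTRko libraries were high in choroid plexus markers (5.28 to 5.97) but low in thalamic ones (mean score 3.64). In 5xFAD, Lct rose from replicate 1 to 3 while the choroid plexus score fell (4.39, 3.82 and 2.33). The part of choroid plexus markers in the Lct values was not tested. Against WT the log2 difference in p75NTRko was 1.07 (SE 0.49; edgeR adjusted p 0.426), and in the cross against p75NTRko it was −1.17 (SE 0.50; adjusted p 0.741). With the thalamus and habenula score in the fit, these became 2.43 (adjusted p 0.0380) and −2.18 (adjusted p 0.0283), both past the threshold.

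Calb1 (calbindin, a calcium buffer of granule cells that CA1 and some interneurons also express) was the most abundant dentate member and ran the other way. It was at 171, 191 and 166 CPM in WT, 137, 162 and 145 CPM in 5xFAD, 144, 146 and 158 CPM in p75NTRko, and 152, 174 and 149.8 CPM in the cross. Both single mutants lay below all WT values, and the cross overlapped WT. The log2 difference from WT was −0.25 (SE 0.10) in 5xFAD and −0.24 (SE 0.10) in p75NTRko, with edgeR adjusted p-values of 0.304 and 0.388. Pdzd2, a PDZ domain protein, also had a negative difference in both single mutants, with 10.9 to 23.2 CPM in WT, 10.5 to 14.8 CPM in 5xFAD and 10.6 to 18.2 CPM in p75NTRko, which overlapped.

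The other dentate members overlapped WT in all 3 mutant genotypes, apart from Glis3 in the cross. Tdo2, the tryptophan dioxygenase, ranged from 3.41 to 13.8 CPM, Trpc6, a cation channel, from 5.25 to 12.4 CPM, and Sema5b, a semaphorin, from 3.65 to 8.51 CPM. Glis3, a zinc finger transcription factor, was at 10.3, 10.2 and 11.3 CPM in WT, 14.3, 11.04 and 13.4 CPM in p75NTRko and 9.66, 8.97 and 9.51 CPM in the cross. Its cross values were the lowest group and lay below all WT and p75NTRko values.

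**Figure D4:**
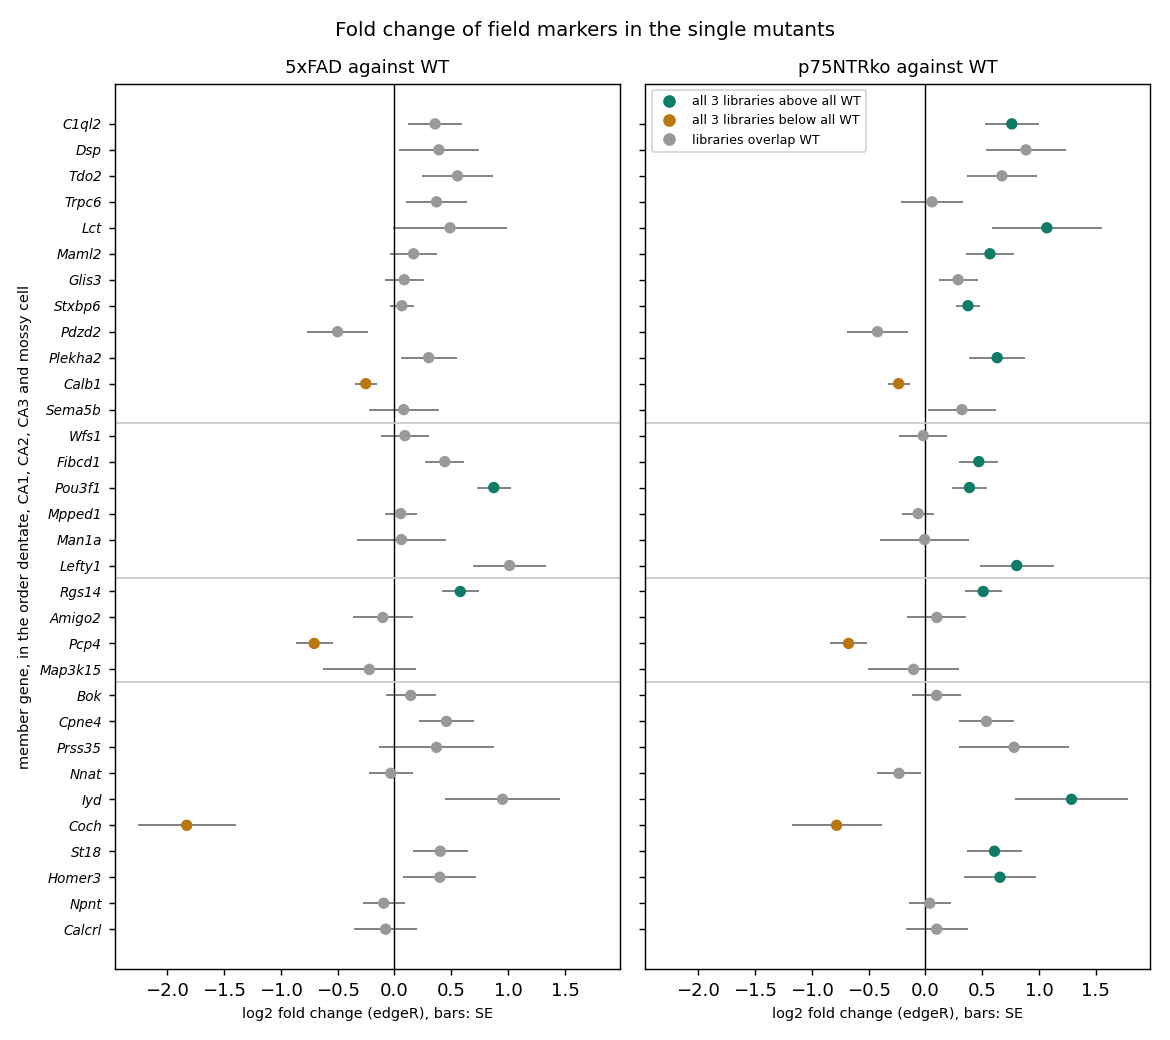
Log2 fold change with its SE (x axis, edgeR) of the 32 tested members (y axis, by field) in 5xFAD (left) and p75NTRko (right), each against the same WT libraries, with members whose 3 values lay above all WT values in green and below in brown. On the right 12 members are green and 3 brown, on the left 2 are green and 3 brown, and none passed the adjusted threshold.

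In 5xFAD against WT the dentate members differed less. None of the 12 was higher and 1, Calb1, was lower at an unadjusted p under 0.05. Their fitted differences were above 0 in 10 of 12 (6474 of all 13065 genes), with a median of 0.23. In p75NTRko they were above 0 in 10 of 12 (6517 of all 13065 genes), with a median of 0.47. Whether the 2 genotypes differ in this was not tested. Over all 32 members, 4 were higher and 3 lower at that p, where 7.73% and 6.14% of all genes were, and 2 lay above and 3 below all WT values, where 10.5% and 9.02% did. These shares are near those of all genes. The 2 above were Pou3f1 and Rgs14 and the 3 below were Calb1, Pcp4 and Coch. The comparison uses the same WT libraries as the one before. Without WT replicate 3, 12 members were higher, 5 of them dentate, where 11.5% of all genes were, and without 5xFAD replicate 3 it was 2 members (5.85%).

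Pou3f1, a POU-domain transcription factor of CA1 and of neocortical layers, came closest to the threshold. It was at 75.5, 68.2 and 98.4 CPM in WT, 135, 124 and 184 CPM in 5xFAD, 102, 103 and 111 CPM in p75NTRko, and 114, 117 and 102 CPM in the cross. All 9 mutant values lay above all WT values, and the 5xFAD values lay above those of both other mutants. Against WT the log2 difference was 0.87 (SE 0.15) in 5xFAD, 0.39 (SE 0.15) in p75NTRko and 0.46 (SE 0.15) in the cross, with edgeR adjusted p-values of 0.0508, 0.372 and 0.439. The cross against 5xFAD gave −0.41 (SE 0.15; adjusted p 0.797), and the interaction −0.80 (SE 0.21; adjusted p 0.331). Over 22 alternatives the 5xFAD difference stayed between 0.69 and 1.03 and was called in 5 of them, with adjusted p-values from 9.68e-05 with DESeq2 to 0.949 with the Xist class in the fit.

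The other CA1 members split into some that were higher in mutants and some with little difference. Fibcd1, a receptor for acetylated ligands in CA1 pyramidal cells, was at 63.2, 109.7 and 97.2 CPM in WT, 119, 100.3 and 148 CPM in 5xFAD and 121, 123 and 130.2 CPM in p75NTRko. The p75NTRko values lay above all WT values and the 5xFAD values did not. Lefty1, a secreted antagonist of Nodal signalling and the CA1 member with the widest range, was at 7.02, 6.005 and 9.62 CPM in WT, 13.1, 9.20 and 23.8 CPM in 5xFAD, 12.2, 13.1 and 14.1 CPM in p75NTRko, and 13.7, 12.5 and 6.89 CPM in the cross. Its log2 difference from WT was 1.01 (SE 0.32) in 5xFAD, with an edgeR adjusted p of 0.244, and 0.80 in p75NTRko, with 0.382.

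Mpped1, a metallophosphoesterase and the most abundant CA1 member, was at 284, 305 and 215 CPM in WT, 270.1, 268 and 297 CPM in 5xFAD, 248, 271 and 251 CPM in p75NTRko, and 232, 284 and 349 CPM in the cross. No genotype separated from another. Wfs1 (wolframin, of the endoplasmic reticulum) was at 90.3 to 119 CPM in WT, 99.5 to 115 CPM in 5xFAD and 85.6 to 111 CPM in p75NTRko, and in the cross at 66.8, 59.5 and 123 CPM. Its lowest and highest values of all 12 libraries were both in the cross. Man1a, a Golgi mannosidase, ranged from 1.88 to 6.31 CPM with all genotypes overlapping.

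The CA2 members pulled in opposite directions. Rgs14, a signalling scaffold that restrains plasticity in CA2, was at 121, 166 and 165 CPM in WT, 208, 195 and 272 CPM in 5xFAD, 223, 217 and 204 CPM in p75NTRko, and 165, 241 and 166 CPM in the cross. Both single mutants lay above all WT values and the cross overlapped them. The log2 difference from WT was 0.58 (SE 0.16; edgeR adjusted p 0.216) in 5xFAD and 0.51 (SE 0.16; adjusted p 0.331) in p75NTRko, and the interaction was −0.75 (SE 0.23; adjusted p 0.379).

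Pcp4, a small calmodulin-binding protein of CA2 that is also strong in thalamus and striatum, was at 211, 246 and 224 CPM in WT, 131, 155 and 131 CPM in 5xFAD, 156, 140.3 and 129.6 CPM in p75NTRko, and 208, 123 and 209 CPM in the cross. Both single mutants lay below all WT values. In the cross, replicates 1 and 3 lay just below the lowest WT value and replicate 2 was the lowest library of all. The log2 difference from WT was −0.71 (SE 0.16) in 5xFAD and −0.68 (SE 0.16) in p75NTRko, with edgeR adjusted p-values of 0.130 and 0.212. The interaction of the transgene with the receptor label was 1.05 (SE 0.23; adjusted p 0.295). DESeq2 called all 3, with adjusted p-values of 0.0107, 0.0335 and 0.0180. The striatal score was higher in the 3 WT libraries than in the other 9, while the thalamus and habenula score was highest in cross replicate 1, followed by the 3 WT libraries. With the thalamus and habenula score in the edgeR fit the differences were −0.55 (adjusted p 0.215) in 5xFAD and −0.45 in p75NTRko. With the Xist class in the fit they were −0.49 and −0.54.

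Amigo2, a leucine-rich repeat adhesion protein of CA2, was at 23.2, 35.7 and 45.8 CPM in WT and 41.6, 31.4 and 17.9 CPM in the cross, with 27.5 to 37.9 CPM in 5xFAD and 37.0 to 37.9 CPM in p75NTRko. Map3k15, a kinase and the CA2 member with the widest range, was at 3.44, 2.60 and 4.15 CPM in WT, 2.38, 2.63 and 3.79 CPM in 5xFAD, 5.19, 2.76 and 1.64 CPM in p75NTRko, and 3.997, 2.14 and 2.95 CPM in the cross. All genotypes overlapped for both genes.

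**Figure D5:**
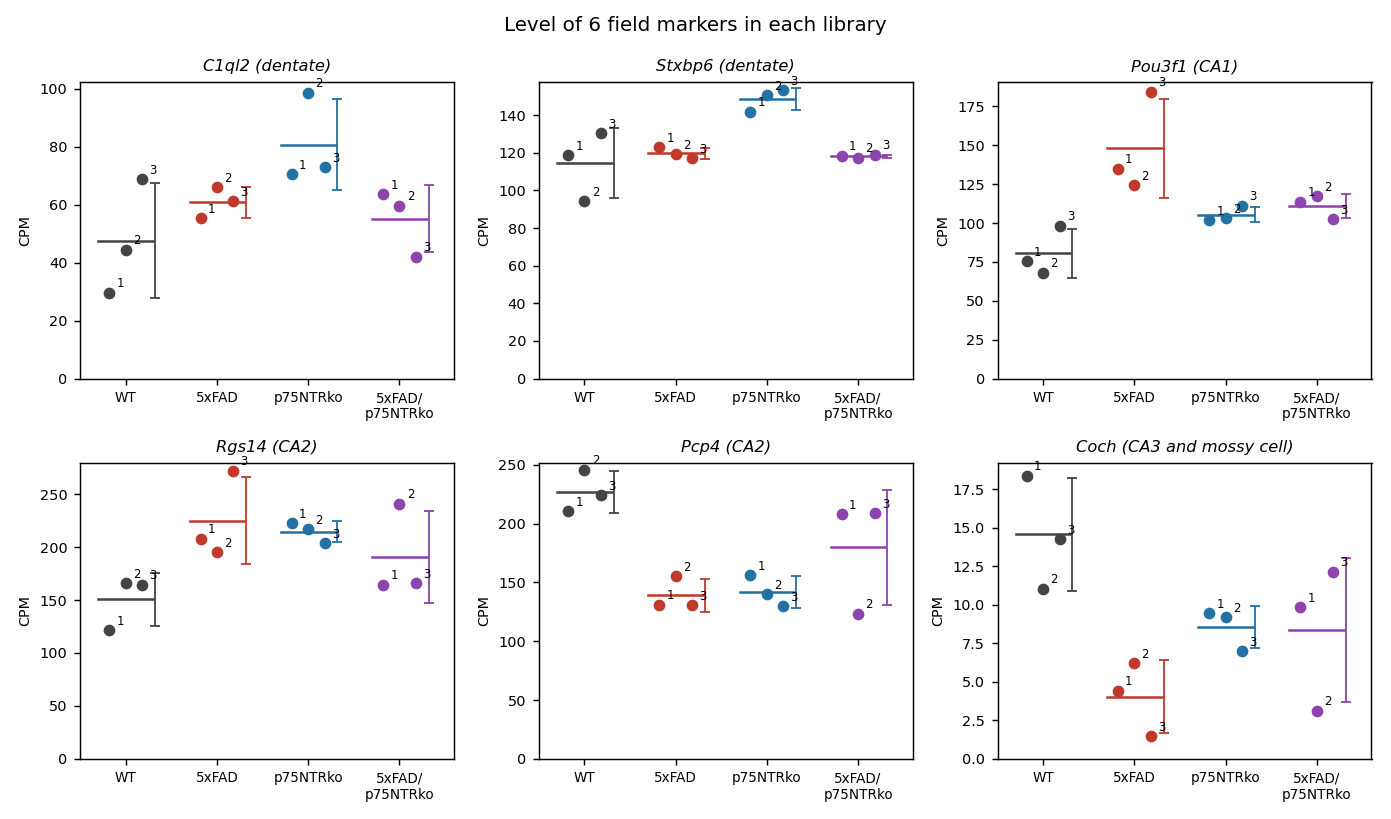
CPM (y axis) of 6 members in each library by genotype (x axis), with replicate numbers, a line at the mean and a bar of 1 SD. Pou3f1 is highest in 5xFAD (124 to 184 CPM), Stxbp6 in p75NTRko (142 to 153 CPM), and Pcp4 and Coch lie below WT in both single mutants.

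Among the CA3 and mossy cell members, Coch (cochlin, a matrix protein best known from the inner ear) had the widest negative difference of the list in both single mutants. It was at 18.4, 11.04 and 14.3 CPM in WT, 4.41, 6.20 and 1.47 CPM in 5xFAD, 9.45, 9.20 and 6.99 CPM in p75NTRko, and 9.83, 3.12 and 12.1 CPM in the cross. Both single mutants lay below all WT values. The log2 difference from WT was −1.83 (SE 0.43) in 5xFAD, with an edgeR adjusted p of 0.150 and a DESeq2 adjusted p of 0.0105, and −0.78 (SE 0.40) in p75NTRko, with an edgeR adjusted p of 0.463. In the cross against 5xFAD it was 1.05 (SE 0.45; edgeR adjusted p 0.913). Of the 10 members of the list, 4 had a negative difference in 5xFAD and 2 in p75NTRko, Coch included. Of all 13065 genes, 6591 and 6548 did.

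Several CA3 markers stood higher in p75NTRko. Iyd (iodotyrosine deiodinase) was at 1.64, 1.46 and 3.48 CPM in WT, 4.63, 4.37 and 6.84 CPM in p75NTRko, 3.57, 3.38 and 5.89 CPM in 5xFAD, and 5.33, 8.77 and 1.80 CPM in the cross. St18, a zinc finger transcription factor, was at 29.9, 47.1 and 54.3 CPM in WT and 69.3, 56.3 and 73.4 CPM in p75NTRko. Homer3, a postsynaptic scaffold protein, was at 15.5, 23.2 and 26.2 CPM in WT and 41.1, 27.6 and 33.2 CPM in p75NTRko. In all 3 genes the p75NTRko values lay above all WT values. The log2 differences were 1.29, 0.61 and 0.66, with edgeR adjusted p-values of 0.372, 0.374 and 0.445. Of the 10 CA3 and mossy cell members, these 3 lay above and 1 below all WT values, where 7.93% and 8.5% of all genes did. The median log2 difference of the 10 was 0.32, and 0.048 with the neocortex and subiculum score in the fit. Cross replicate 3 held the lowest Homer3 value of all, 11.3 CPM.

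The more abundant CA3 members were less clear. Nnat was at 713, 1095 and 931 CPM in WT, 989, 1093 and 596 CPM in 5xFAD, 716, 871 and 746 CPM in p75NTRko, and 768, 872 and 685 CPM in the cross, with all genotypes overlapping. Cpne4, a copine that binds phospholipids, was at 60.1, 52.6 and 86.4 CPM in WT, 83.0, 91.1 and 99.3 CPM in 5xFAD, 81.7, 94.0 and 113 CPM in p75NTRko, and 91.9, 131 and 55.9 CPM in the cross. WT replicate 3 overlapped the mutants. Bok, a Bcl2 family member, ranged from 26.2 to 53.0 CPM, Npnt (nephronectin, a matrix protein) from 21.0 to 36.2 CPM, Calcrl, a receptor of the calcitonin family, from 5.03 to 10.5 CPM and Prss35 from 0.664 to 2.53 CPM. These 4 overlapped between all WT and mutant groups.

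Dentate members stood lower in the cross than in p75NTRko. In the cross against p75NTRko, 5 of 32 members were lower and 0 higher at an unadjusted p under 0.05, where 2.99% and 3.6% of all genes were. All 5 were dentate: Stxbp6, Maml2, Glis3, Lct and C1ql2. By separation 5 members lay below all p75NTRko values and 0 above, where 5.74% and 6.54% of all genes did, and of these 4 were dentate and the fifth was the CA1 marker Fibcd1. The median log2 difference of the dentate members was −0.36, and of all genes tested 0.01. Without p75NTRko replicate 1 the 5 became 2 (1.93% of all genes), without cross replicate 3 they became 3 (2.64%) and without cross replicate 1 they became 8 (4.36%). With the Xist class in the fit they became 3 (2.64%), and with the thalamus and habenula score 8 (4.94%). Markers of oligodendrocytes also stood lower in the cross than in p75NTRko. All 9 of these markers had a negative difference, as did 6099 of all 13065 genes. At that p 7 of the 9 were lower, 7 lay below all p75NTRko values, and their median was −0.45. Their score was 7.58 to 7.77 in p75NTRko and 6.99 to 7.37 in the cross, and their summed level 6199 to 7545 CPM and 3994 to 5173 CPM. Their part in the dentate difference was not tested. Stxbp6, Maml2, and Glis3 had the smallest p-values, with log2 differences of −0.33, −0.56 and −0.46 and edgeR adjusted p-values of 0.673, 0.713 and 0.713.

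In the cross against 5xFAD, few members reached an unadjusted p under 0.05. A negative difference was fitted for 22 of 32, 5 of them among the 6 CA1 members, and for 6164 of all 13065 genes. At that p, 2 members were higher and 1 lower, where 1.98% and 3.1% of all genes were: Coch and Pcp4 (log2 difference 0.37, edgeR adjusted p 0.913) were higher and Pou3f1 lower. No member lay above all 5xFAD values and 1, Pou3f1, below, where 5.18% and 6.02% of all genes did. Field medians were −0.11 for dentate, −0.40 for CA1, −0.01 for CA2 and −0.12 for CA3 and mossy cell members. Against WT, 3 members were higher and 0 lower at that p (5.51% and 4.44% of all genes): Pou3f1, Iyd and Tdo2, with log2 differences of 0.46, 1.25 and 0.69 and edgeR adjusted p-values of 0.439, 0.478 and 0.491. By separation, 1 member lay above and 2 below all WT values (5.95% and 5.53%). The dentate median against WT was 0.03 and the CA3 and mossy cell median 0.03.

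The interaction asks whether the transgene goes with a different change in receptor-labelled libraries than in the others. Of 32 members, 3 had a positive and 11 a negative interaction at an unadjusted p under 0.05, where 5.19% and 4.13% of all genes did. The median was −0.54 for dentate, −0.59 for CA1, −0.01 for CA2 and −0.36 for CA3 and mossy cell members, against 0.00 for all genes tested. Markers of other cells and tissues had interactions as large. Of 9 oligodendrocyte markers 7 were negative at that p (median −0.52), and of 10 thalamus and habenula markers 5 were positive (median 1.20). Of 13 neocortex and subiculum markers 5 were positive and 1 negative (median 0.38). All 6 general markers of excitatory neurons had a negative fitted value, 2 of them at that p (median −0.53). Of all 13065 genes, 6490 had a negative fitted value. The part of these other markers in the members' interactions was not tested. The 3 positive members were the members whose values lay below all WT values in both single mutants: Pcp4 at 1.05, Coch at 1.83 and Calb1 at 0.34. The smallest p-values belonged to Pcp4, Pou3f1 and Rgs14, with edgeR adjusted p-values of 0.295, 0.331 and 0.379. With the Xist class in the fit, 0 members had an interaction of either sign at that p (1.96% and 2.02% of all genes), and without both libraries highest in neocortex and subiculum markers 2 were positive (2.74%) and 5 negative (2.58%). The 11 negative ones became 6 without WT replicate 1 (3.34% of all genes), without 5xFAD replicate 3 (3.23%) or without p75NTRko replicate 1 (3.5%). They became 7 without cross replicate 3 (2.72%) and 4 with the neocortex and subiculum score in the fit (2.22%). For any difference among the 4 genotypes, 9 of 32 members had an unadjusted p under 0.05, where 10.4% of all genes did, and the smallest edgeR adjusted p-values were 0.114 for Pou3f1, 0.170 for Pcp4 and 0.308 for Coch.

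Further markers outside the 33 were read in the same 12 libraries, and their lists too were chosen with earlier results known. They are therefore not an independent check, and their counts were not recomputed under the alternatives. The score of the other dentate genes was lowest in WT replicate 1, at 4.85. Of 10 other dentate genes, none passed the adjusted threshold, and in p75NTRko against WT 5 were higher and 0 lower at an unadjusted p under 0.05 (5.33% and 6.16% of all genes), with a median log2 difference of 0.38. Spata13, a guanine nucleotide exchange factor, was at 31.7, 34.4 and 37.5 CPM in WT, 31.6, 35.3 and 38.1 CPM in 5xFAD, 61.0, 43.9 and 45.3 CPM in p75NTRko, and 33.1, 30.4 and 23.4 CPM in the cross. The p75NTRko values lay above all others, with a log2 difference of 0.54 from WT (edgeR adjusted p 0.273) and of −0.79 in the cross against p75NTRko (SE 0.16; adjusted p 0.265). Rasl10a, a small GTPase, was at 24.4, 30.02 and 29.0 CPM in WT and 39.9, 35.2 and 36.0 CPM in p75NTRko, which did not overlap, and had a log2 difference of 0.41 (SE 0.12; edgeR adjusted p 0.273) in p75NTRko against WT. Prox1, the transcription factor of granule cell identity, was at 2.69, 4.71 and 5.14 CPM in WT and 6.67, 8.28 and 6.84 CPM in p75NTRko, which did not overlap. It was chosen after its values were seen. Of the 10, 3 had a negative difference, as did 6548 of all 13065 genes. Gsg1l, an auxiliary subunit of AMPA receptors, had the widest of the 10 at −0.88 (SE 0.43; edgeR adjusted p 0.448). It was at 70.1, 86.01 and 32.5 CPM in WT and 30.2, 41.2 and 31.96 CPM in p75NTRko, which overlapped. It too was named after its values were seen.

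Of 14 other CA field genes, 11 were tested and none passed. In p75NTRko against WT 1 was higher and 1 lower at an unadjusted p under 0.05, where 5.33% and 6.16% of all genes were. These counts are near the shares of all genes. The median log2 difference of the 11 was 0.22, and 4 of them had a negative difference, as did 6548 of all 13065 genes. Spink8, a protease inhibitor of CA1, was at 26.6, 38.6 and 52.8 CPM in WT, 66.9, 55.2 and 77.8 CPM in 5xFAD, 66.4, 56.3 and 64.1 CPM in p75NTRko, and 59.1, 63.7 and 41.8 CPM in the cross. Both single mutants lay above all WT values, with log2 differences of 0.76 (SE 0.21; edgeR adjusted p 0.213) and 0.67 (adjusted p 0.330). Nectin3, a cell adhesion molecule listed in the table under its older symbol Pvrl3, was at 29.1, 30.5 and 27.7 CPM in WT, 39.2, 36.8 and 37.7 CPM in 5xFAD, 34.7, 32.6 and 34.6 CPM in p75NTRko, and 28.5, 37.2 and 17.4 CPM in the cross. Its interaction was −0.68 (SE 0.27; edgeR adjusted p 0.488).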

How the data were processed

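Raw read counts by gene symbol, as deposited, were used for 12 libraries. The number of columns from other samples was 0. Per the submitters' processing notes, mm10, FastQC, HISAT2, SAMtools, HTSeq and edgeR were used, with no versions; per the labels' protocols, libraries were QuantSeq 3′ forward libraries, and all carry the same batch label. Annotation and strand setting are not given in the sources used here. The 5 summary lines that name no gene were left out; reads outside any feature were 28.9% to 33.5% and reads assigned to genes 32.2% to 38.5% of those in the table, so overlapping genes are uncertain.

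In R 4.3.3 with edgeR 4.0.16, counts were filtered with filterByExpr by genotype, scaled by TMM (factors of 0.975 to 1.03) and fitted with a mean per genotype over all 12 libraries by the quasi-likelihood method, with Benjamini-Hochberg adjustment over 13065 genes. Standard errors were computed from the F statistic of each fold change. CPM used TMM-scaled library sizes. Per the labels, libraries of a genotype are biological replicates. The floor of 3 counts covers counting error only. Alternatives were DESeq2 1.42.0, RLE size factors, other filters, only the compared genotypes, a replicate block, the Xist class, marker scores as covariates, other score definitions and leaving out libraries. The fit was tested on simulated counts.

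Named genes were all 33 members, with values in every library for the 2 highest and the widest-ranging member of each field and the 3 smallest p-values of each comparison, and the 2 smallest p-values of each of 2 further lists; other members given per library were chosen after their values were seen. Members and marker lists were chosen with earlier results of these data known. Promoters are RefSeq sequences on GRCm38.p6 and positions from GENCODE, both of the mm10 assembly.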

Additional observations from a re-analysis of the deposited data

How the results depend on the processing

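The 48 single-member differences at an unadjusted p under 0.05 were recomputed under the alternatives, and none changed sign in 1037 values, 22 of which crossed the threshold. They were chosen by that p, and the other differences were not recomputed. The replicate block gave 0 members called in each comparison, as without it; across 18 pairs of libraries with the same number, deviations from the genotype means correlated at −0.42 to 0.14, and 2 of 12 libraries correlated best with their own number, so the numbers were not taken to pair the libraries. The cause of the moves below was not tested, and the shares of all genes called under these settings are not given here. Members called numbered 3 for 5xFAD against WT, 1 for p75NTRko against WT, 1 for the interaction and 3 for any difference with DESeq2; 3, 1, 1 and 2 without a filter on low counts, which calls more genes of all kinds; and 1 and 1 for the first pair of comparisons with only the compared genotypes. With the thalamus and habenula score as a covariate 1 was called for p75NTRko against WT and 1 for the cross against p75NTRko. Both were Lct, with the limits given for that gene above. Leaving out 1 library gave 0 to 3 for 5xFAD against WT (3 without cross replicate 2, 1 without cross replicate 3 or WT replicate 3), 0 to 1 for p75NTRko against WT, 0 to 1 for the interaction and 0 to 1 for any difference.

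Field medians (log2) that moved by more than the spread between libraries were, with the Xist class, CA1 −0.14 for the cross against 5xFAD and −0.23 for the interaction, and CA2 0.27 for 5xFAD and 0.33 for p75NTRko against WT and −0.53 for the interaction. With the thalamic covariate they were CA2 0.19, 0.35 and −0.48 for the same 3, CA1 0.48 for p75NTRko against WT and −0.89 for the interaction, and dentate 0.47 for 5xFAD against WT. With the neocortex and subiculum covariate, added after seeing the data, the CA3 medians were −0.055 for 5xFAD and 0.048 for p75NTRko against WT and −0.012 for the interaction; without the 2 libraries highest in those markers, also added, they were 0.15 for CA3 in the cross against 5xFAD and 0.25 for CA2 in the interaction. The CA3 median for p75NTRko against WT was 0.11 with a mean of at least 50 counts and 0.10 with only the compared genotypes, both with fewer genes. With 1 library left out, medians ranged as follows: for 5xFAD against WT, CA1 0.17 to 0.49 and CA3 0.049 to 0.32; for p75NTRko against WT, CA1 0.12 to 0.42 and CA2 −0.28 to 0.20; for the cross against 5xFAD, CA1 −0.49 to −0.085 and CA3 −0.30 to 0.15; for the cross against p75NTRko, CA2 −0.26 to 0.14 and CA3 −0.43 to −0.080; for the cross against WT, CA2 −0.42 to 0.026 and CA3 −0.094 to 0.25; for the interaction, CA1 −0.83 to −0.42, CA2 −0.29 to 0.27 and CA3 −0.63 to −0.15. Score differences moved when scores were medians (dentate −0.053 for 5xFAD and 0.17 for p75NTRko minus WT; dentate minus CA1 −0.51, −0.13 and, for the cross minus 5xFAD, 0.40) or log2 of summed CPM, which Nnat dominates (CA3 −0.076 for p75NTRko minus WT and −0.059 for the cross minus p75NTRko). The CA2 medians near 0 carry no direction. Low members such as Prss35, near 1 CPM, are limited by depth.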
